A study of Homo sapiens with 10 samples.

Results

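The replication-dependent histone genes were taken as the protein-coding genes of GENCODE 44 on chromosomes 1 and 6 whose symbols start with H1-, H2AC, H2BC, H3C or H4C. This gave 68 of 20033 protein-coding genes, of which 53 had a single exon in every annotated transcript and 15 had a multi-exon transcript. Each gene was given the poly(A) 3′-seq peaks with a summit in its body or up to 4 kb past its 3′ end, and 102 distinct peaks of 178837 listed met this rule. The libraries came from IMR-32 cells, a human neuroblastoma line, transduced with pLKO.1 lentivirus and selected with puromycin. They carried 1 of 2 shRNAs against CDK12 (sh22 or sh98), 1 of 2 shRNAs against CDK13 (sh701 or sh704) or a control shRNA against GFP, with 2 libraries, labelled as biological duplicates, for each of these 5 groups. The reads of all 10 libraries were merged before peaks were called, so a peak describes the pool, and neither an effect of a knockdown nor a spread between replicates could be measured. Intervals are 95% Wilson intervals unless another kind is named, and cover counting error only.

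Replication-dependent histone genes supply the nucleosome core (H2A, H2B, H3 and H4) and the linker histone H1 while DNA is copied. Their usual mRNAs are the exception among messenger RNAs in having no poly(A) tail. The stem-loop binding protein SLBP holds a conserved hairpin in the 3′ UTR, the U7 snRNP pairs downstream of it, and the endonuclease CPSF3 cuts the RNA a few bases past the hairpin. Polyadenylated histone mRNAs arise when cleavage takes place at a downstream poly(A) signal instead. Poly(A) 3′-seq primes on A tails with oligo(dT) and reads from the end of the RNA, so the 3′ edge of a peak, on the strand of the gene, marks where the tailed or primed RNA ended. The list has no strand, and the strand of the nearest member was used.

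The hairpin is the sequence that all members share, and it sets the zero point for the distances that follow. The pattern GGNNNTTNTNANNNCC, in which N is any base, was found within 150 bp past the stop codon of 68 of 68 members (100%, 94.7 to 100%), beginning 23 to 68 bp after the stop codon with a median of 36 bp. Among the other single-exon protein-coding genes with a stop codon, 1 of 912 had it (0.110%), namely H3-4, a histone gene on chromosome 1 outside the naming rule. The hairpins below are printed on the strand of the gene on GRCh38, with the 16 bases of the match in capitals, for members of each type whose peak ended beside the hairpin.
H4C5, chr6:26204995-26205024, plus strand: atcaaaGGCCCTTTTCAGGGCCgcccacag
H4C8, chr6:26285123-26285152, minus strand: accaaaGGCCCTTTTCAGGGCCgcccactt
H4C14, chr1:149833026-149833055, plus strand: cccaaaGGCCCTTTTTAGGGCCgaccactt
H3C3, chr6:26045843-26045872, plus strand: tgaaaaGGCTCTTTTCAGAGCCactcacaa
H2AC4, chr6:26033090-26033119, minus strand: agcaaaGGCTCTTTTCAGAGCCacctacga
H2BC8, chr6:26216210-26216239, minus strand: ctcaaaGGCTCTTTTCAGAGCCactcaagt
H1-5, chr6:27866789-27866818, minus strand: cccaaaGGCTCTTTTCAGAGCCacccagag
The stem letters split by type. All 14 H4 genes carried GGCCCT on the left arm and AGGGCC on the right, and 52 of the other 54 members carried GGCTCT and AGAGCC. The exceptions were H2AC11, which joins the left arm of the common form to the right arm of the H4 form, and H2AC15. The annotated 3′ end of single-exon members follows the hairpin closely: 36 of 53 records ended 5 bp past it and 51 of 53 ended 0 to 20 bp past it.

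Poly(A) peaks were found at most single-exon histone genes. In the gene body or up to 4 kb past the end, 44 of 53 single-exon members had a peak (83.0%, 70.8 to 90.8%), whereas 32.4% of the 926 other single-exon protein-coding genes did. In the window from 200 bp before to 600 bp past the annotated 3′ end, called the TES window here, the share was 58.5% (31 of 53, 45.1 to 70.7%) against 22.4%. More than 600 and up to 4000 bp past the end it was 32.1% (17 of 53, 21.1 to 45.5%) against 14.0%. A peak whose 3′ edge lay within 10 bp of the annotated end was present at 17 of 53 genes (32.1%), against 13.1%. The intervals did not reach the share of the other genes in any of these 4 measures. Leaving the olfactory receptor genes out of the comparison raised the shares of the remaining 722 genes to 40.9%, 28.5%, 17.5% and 16.8%, and keeping only the 688 genes no longer than the longest single-exon member (2224 bp) gave 21.7%, 13.7%, 12.5% and 5.67%. The histone windows crowd together, since 23 of the 102 peaks lay in the windows of several members. With every peak left out that lay in the body or window of another protein-coding gene, the share with any peak was 52.8% against 18.0%, and the share with a peak beyond 600 bp was 11.3% (5.29 to 22.6%) against 4.97% (3.74 to 6.56%), where the intervals overlapped.

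The intervals of peak height overlapped between histone genes and the other single-exon genes with a peak. Height was measured as the summit pileup, the number of 100 bp read extensions that cover the summit in the pool of all libraries. At most 1 read per position and strand was counted under the MACS2 default, so height is a capped count and not RNA abundance. The strongest peak of the 44 single-exon members had a median pileup of 18 reads (95% order-statistic interval 15 to 23), and that of the 300 other single-exon genes with a peak was also 18 (16 to 20). It was 15 (14 to 17) in the genes no longer than the longest single-exon member, and 15 in histone genes (14 to 18) against 18 (15 to 23) with every peak left out that lay near another coding gene. Of genes with a peak, 38.6% of histone genes (25.7 to 53.4%) and 40.3% of other single-exon genes (34.9 to 46.0%) had an edge within 10 bp of the annotated end, as did 26.2% (19.8 to 33.8%) of the genes no longer than the longest single-exon member. Over all 102 histone peaks the pileup ran from 4 to 57, and its median of 13.0 lay above the 9 of all listed peaks. With peaks of a deposited −log10 q-value of at least 20 alone, which 7 histone peaks reached, the share of genes with any peak was 15.1% for single-exon histone genes (7.85 to 27.1%) and 13.0% for the other single-exon genes, and the intervals overlapped.

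Each peak was then assigned to the member whose gene end or hairpin end was nearest to its summit, and placed by the distance of its 3′ edge from the end of the hairpin. These classes were set after the distances had been seen. Of the 102 peaks, 12 ended before the hairpin end, 21 within 20 bp of it, 21 from 21 to 600 bp past it and 48 farther downstream. Pileups are counted at the summit, which in some peaks of every class lay more than 100 bp before the edge. In such peaks the pileup does not count reads that ended at the edge. The 21 peaks at the hairpin belonged to 21 members, 18 of them single-exon. Their edges lay from −5 to 13 bp relative to the last base of the hairpin, with a median of 4 bp, and 17 of 21 lay 0 to 10 bp past it. Their pileups were 10 to 29 reads with a median of 15. Of these 21, 16 lay in no other protein-coding gene's body or window, and 5 had intervals that also aligned elsewhere in the genome (at least 95% identity over at least 75 bases).

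**Figure D1:**
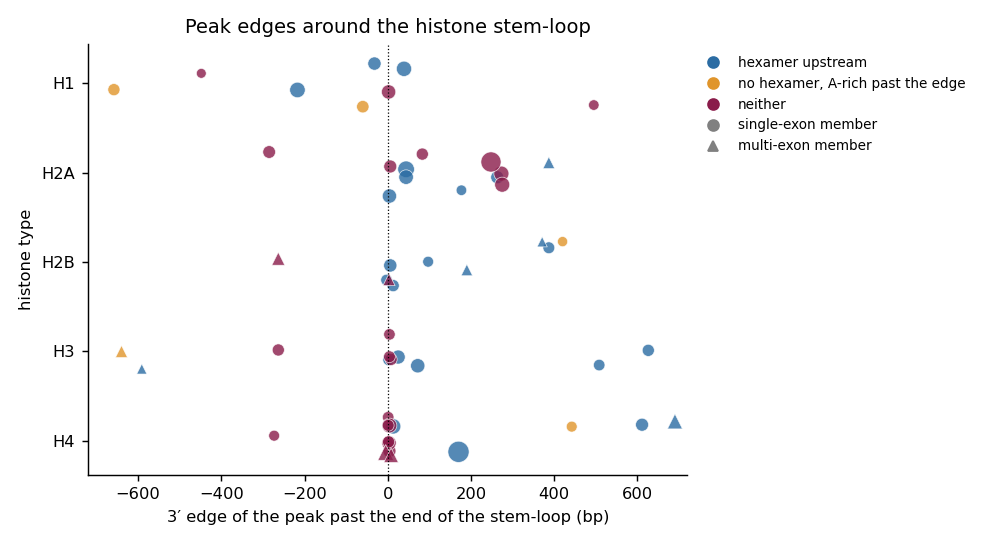
Each point is a histone peak, placed by the distance in bp of its 3′ edge past the last base of the hairpin (x axis) and by histone type (y axis, with vertical scatter for legibility); colour gives the sequence signal, shape gives the exon class of the member and area grows with the summit pileup. Shown are the 56 peaks within 700 bp; 21 of them gather at the dotted line that marks the hairpin end, 10 of these in the H4 row.

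The peaks at the hairpin and the peaks at the annotated ends of other genes were both chosen by position. Their hexamer shares therefore depend on the gene sequence there, and no share is given for hairpin ends without a peak. Within that limit, the peaks at the hairpin differed in sequence from the others. One of the 12 poly(A) hexamers listed by the study lay within 100 bp upstream of the edge in 6 of 21 (28.6%, 13.8 to 50%), and AATAAA or ATTAAA in 2 of 21 (9.52%). None of the 21 had 7 or more A in the 10 bases past the edge (0%, 0 to 15.5%). The highest count among them was 5 and the median 3. By the same search, 129 of 134 peaks that ended within 20 bp of the annotated end of another single-exon gene had a hexamer (96.3%, 91.6 to 98.4%), as did 7985 of 8191 such peaks of multi-exon protein-coding genes (97.5%). Neither a hexamer nor 7 A was present at 15 of the 21 hairpin peaks (71.4%, 50 to 86.2%). The shares among the comparison peaks were 2.99% for single-exon and 2.08% for multi-exon genes. These 15 hairpin peaks were weaker calls, with −log10 q from 5.19 (H4C4) to 18.7 (H4C8). Only 1 of the 21 hairpin peaks, that of H4C11, passed the stricter cutoff of 20 used above, and it had AATAAA. Whether the contrast holds among strong calls alone was therefore not tested. The 21 to 600 bp class had a hexamer in 14 of 21 peaks (66.7%, 45.4 to 82.8%) and the class beyond it in 33 of 48 (68.8%, 54.7 to 80.1%). Both intervals held the share over all peaks of other single-exon genes, 454 of 612 (74.2%, 70.6 to 77.5%). Neither signal was present at 19.0% of those 612 peaks. Of the peaks that ended before the hairpin, 3 of 12 had a hexamer (25%, 8.89 to 53.2%) and 6 of 12 had neither signal (50%, 25.4 to 74.6%). A-rich edges, with 7 or more A, made up 3 of 12 peaks before the hairpin, 2 of 21 from 21 to 600 bp past it and 16 of 48 beyond.

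**Figure D2:**
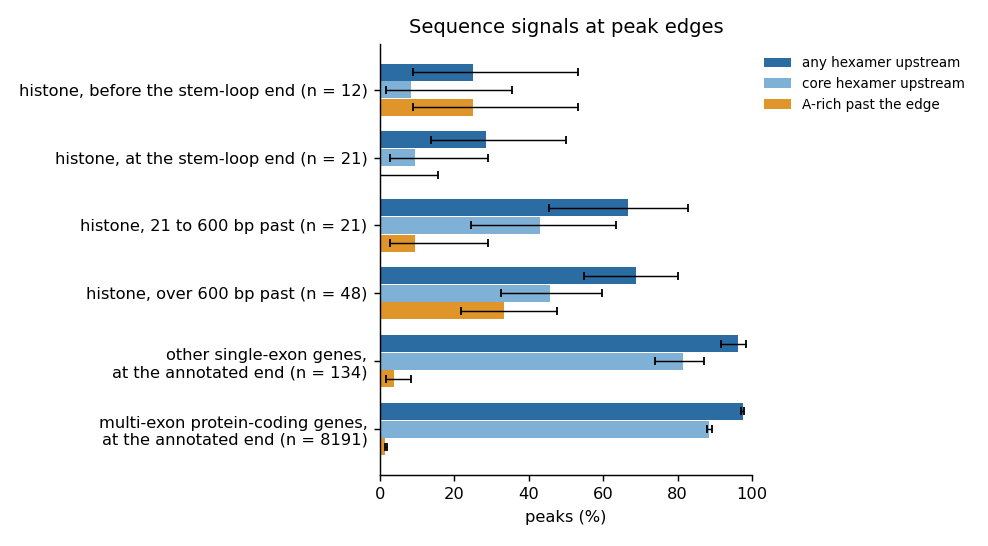
Percent of peaks (x axis) with any of 12 hexamers, with AATAAA or ATTAAA (core hexamer), or with at least 7 A in the 10 bases past the edge, for histone peaks by place (the hairpin is named stem-loop) and for peaks that end within 20 bp of the annotated end of other genes; lines are 95% Wilson intervals. The hairpin class stands at 28.6%, 9.52% and 0%, and the other single-exon genes at 96.3%, 81.3% and 3.73%.

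H4 genes, which encode the core histone that pairs with H3, were the type whose peaks ended at the hairpin in most members. Of the 11 H4 members with a peak of their own, 10 had one at the hairpin (90.9%, 62.3 to 98.4%), compared with 11 of the 42 members of the other types (26.2%, 15.3 to 41.1%). By peaks, the shares were 10 of 16 (62.5%, 38.6 to 81.5%) and 11 of 86 (12.8%, 7.29 to 21.5%). The 4 H4 genes with the highest pileups among peaks in no other coding gene's body or window all had that peak at the hairpin. H4C14 had 29 reads with the edge at −5 bp, H4C11 had 27 reads at 13 bp, H4C5 had 25 reads at 4 bp and H4C8 had 24 reads at 8 bp. These reads were counted at the summit, which lay 301 bp before the edge at H4C14 and H4C8. It lay 91 bp before the edge at H4C5 and 64 bp before it at H4C11. The hairpin peaks of H4C12 (23 reads), H4C2 (18), H4C13 (15), H4C9 (14), H4C1 (13) and H4C4 (10) had their edges 1 to 4 bp past the hairpin. At H4C14 the interval also aligned to H4C15, and those of H4C11 and H4C12 aligned to each other, so reads of these near-copies may be shared. No hexamer was found at 9 of the 10 edges, and no H4 coding sequence held a stretch of 10 bases with at least 7 A.

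The sequence at the edges of these H4 peaks is printed below, with the bases past the 3′ edge in capitals. The edges fall within the last bases of the hairpin or up to 13 bases past it.
H4C5, chr6:26205001-26205030, plus strand: ggcccttttcagggccgcccACAGTTTTCC
H4C8, chr6:26285113-26285142, minus strand: cttttcagggccgcccacttTTTTCATAAA
H4C14, chr1:149833023-149833052, plus strand: gatcccaaaggccctttttaGGGCCGACCA
H4C11, chr6:27824468-27824497, plus strand: cagggccaccctactttctcAGCTGAAGAG
The exception with a hexamer was H4C11, where AATAAA started 36 bp before the edge and lay directly ahead of the hairpin rather than downstream of it, as chr6:27824440-27824469 (plus strand) shows with the hexamer in capitals: tccctttctatcAATAAAaggcccttttca. Some of the H4 peaks were wide. Of the 21 hairpin peaks of all types, 12 were 100 to 122 bp wide, close to the 100 bp to which reads were extended, and 8 were 271 to 391 bp wide, 6 of these at H4 genes. The peak of H4C12 spanned 391 bp beside a gene record of 387 bp, and its summit lay 295 bp before the edge. In 5 of the 21 peaks the summit lay more than 100 bp before the edge, out of reach of reads that start at the edge and extend by 100 bp. These were the peaks of H4C14, H4C8, H4C12, H4C13 and H2AC4. Their pileups therefore do not count reads that ended at the hairpin.

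The strongest peak at any histone gene belonged to H4C3 and did not end at the hairpin. It is named here, as are H2AC18, H2AC19, H2AC20, H2BC21 and the other genes outside the naming rule, after its values had been seen. The peak had a pileup of 57 reads, the 99.7th percentile of the list, was 565 bp wide and ended 170 bp past the hairpin. Its summit lay at −77 bp relative to the annotated end and its edge at 165 bp, more than 100 bp apart. The 57 reads therefore do not count reads that ended at that edge, and where they ended was not tested. AATAAA started 10 bp before the edge of the peak, as the sequence shows with the hexamer in capitals.
H4C3, chr6:26104473-26104502, plus strand: ggcatagagaggtaagcgctAATAAAgtga
The window of H4C3 lies inside the long record of H2BC4 on the opposite strand and overlaps that of H1-6, and the list cannot separate the strands. A second peak of H4C3 with 11 reads ended 442 bp past the hairpin, where all 10 bases past the edge were A. H4C5 had a further peak of 18 reads 611 bp past its hairpin with AATAAA 29 bp before the edge.

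H3 genes, which encode the core histone with the heavily modified N-terminal tail, were spread over all places. Of their 14 peaks, 3 ended before the hairpin, 4 at it, 3 from 21 to 600 bp past it and 4 beyond. The hairpin peaks were those of H3C3 (15 reads, edge at 8 bp), H3C7 (14 reads, 4 bp), H3C13 (13 reads, 4 bp) and H3C11 (13 reads, 2 bp), a range of 13 to 15 reads that lies within the 10 to 29 reads of the H4 peaks. The highest pileup among H3 peaks was 23 reads at H3C8, 72 bp past the hairpin with the hexamer ACTAAA, and H3C4 followed with 22 reads 25 bp past it with TATAAA. H3C1 had a peak of 15 reads inside the coding region, 263 bp before the hairpin end, and one of 13 reads 508 bp past it with AATAAA 22 bp before the edge. H3C13 also had 15 reads 626 bp past the hairpin. The 3 H3 genes without a peak were H3C2, H3C14 and H3C15.

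H1 genes encode the linker histones that bind DNA between nucleosomes, and their coding sequence is rich in lysine codons. All 6 had a peak in their body or window, and 5 had one of their own. In this type 5 of 9 peaks ended before the hairpin, and the coding sequences of all 6 genes held stretches of 10 bases with at least 7 A, 85 starts in all, compared with 54 in 17 H2A genes, 7 in 18 H2B genes, 3 in 13 H3 genes and 0 in 14 H4 genes. Only the coding piece that ends at the stop codon was searched, which was 25 bp in H2BC18 and 38 bp in H2BC11. The counts were not scaled to coding length, which is greater in H1 genes. H1-2 had the highest pileups. A peak of 28 reads ended 217 bp before the hairpin end with 6 A in the 10 bases past the edge, and a peak of 27 reads ended 39 bp past the hairpin, 27 bp after the start of AATAAA. Another H1-2 peak, of 8 reads, ended 448 bp before the hairpin end with 4 A past the edge and no hexamer. H1-3 had peaks of 16 and 15 reads, 60 and 658 bp before the hairpin end, each with 7 A past the edge. H1-4 had 19 reads, with an edge in the 3′ UTR 32 bp before the hairpin end and 5 A past the edge. Relative to the annotated end, summit and edge lay at −289 and −65 bp for the 16 reads of H1-3, and at −288 and −37 bp for H1-4. Both gaps exceed 100 bp, so these 2 pileups do not count reads that ended at the edge. H1-5 was the only H1 gene with a hairpin peak, of 23 reads and 391 bp wide, and H1-1 had only a peak of 5 reads 3382 bp past the hairpin. The edges inside H1 coding sequence with 6 or 7 A past them and the AATAAA site of H1-2 are shown, with the bases past the edge, or the hexamer, in capitals. The internal H1-2 edge with 4 A is not printed.
H1-3, chr6:26234267-26234296, minus strand, inside the gene: caaagaaggcagctccgaagAAAAAGTGAA
H1-3, chr6:26234865-26234894, minus strand, inside the gene: cccgcagaaaaaacacctgtGAAGAAAAAG
H1-2, chr6:26055951-26055980, minus strand, inside the gene: gcgctaagaaaacaccgaagAAAGCGAAGA
H1-2, chr6:26055705-26055734, minus strand, past the hairpin: ctcAATAAAagagctggataatttctttac
The share of these internal reads that came from priming on the A-rich codons was not tested.

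H2A genes, whose products form dimers with H2B in the nucleosome core, ended mostly downstream of the hairpin. Their 26 peaks comprised 1 before the hairpin, 2 at it, 9 from 21 to 600 bp past it and 14 beyond. The hairpin peaks were those of H2AC14 (23 reads, edge at 4 bp) and H2AC4 (18 reads, 6 bp), and the latter was the highest pileup among H2A peaks in no other coding gene's window. H2AC11 followed with 17 reads inside the gene, 285 bp before the hairpin end. H2AC8 had 16 reads 1406 bp past the hairpin, where all 10 bases past the edge were A, and H2AC12 had 15 reads 83 bp past the hairpin without a hexamer. The strongest H2A peak, 51 reads over 408 bp, spanned the converging ends of H2AC20 and H2AC21. Its summit lay inside H2AC20, and its edge, 248 bp past the hairpin of H2AC20 and without a hexamer, lay inside H2AC21. H2AC18 and H2AC19, which are transcribed away from each other as the arms of an inverted repeat on chromosome 1, each had a peak ending 39 bp past the gene record, of 33 and 24 reads, and each had AATAAA 31 bp before the edge. Each also had a peak of 26 reads 273 or 275 bp past the hairpin. All 4 intervals aligned to the other copy. The site of each gene is shown with the hexamer in capitals, and the 30 bases are the same.
H2AC18, chr1:149842192-149842221, minus strand: cccacgttttcaAATAAAagagttgttaat
H2AC19, chr1:149851591-149851620, plus strand: cccacgttttcaAATAAAagagttgttaat

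AATAAA or ATTAAA began within 100 bp past the hairpin in 5 of the 68 members, namely H2AC18, H2AC19, H2AC4, H1-2 and H2BC5, always 13 or 14 bp past it. Of these, H2AC18, H2AC19 and H1-2 had a peak 39 to 44 bp past the hairpin, while H2AC4 and H2BC5 had peaks 6 and 3 bp past it and none from 21 to 600 bp. A peak from 21 to 600 bp past the hairpin was thus assigned to 3 of these 5 members, and to 14 of all the remaining members of the 68, which lack such a close signal.

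H2B genes had the most peaks, 37, and 26 of these ended more than 600 bp past the hairpin. The 4 hairpin peaks were those of H2BC8 (19 reads, edge at 6 bp), H2BC9 (15 reads, 13 bp), H2BC5 (15 reads, 3 bp) and H2BC12 (13 reads, −3 bp). Among single-exon members, H2BC8 and H2BC17 had a peak in no other coding gene's window with a summit more than 600 bp past the annotated end, a core hexamer and fewer than 7 A past the edge. H2BC8 had 26 reads 2142 bp past the hairpin, the highest pileup of such H2B peaks, and a peak of 18 reads 1036 bp past it with 10 A past the edge. H2BC17 had 11 reads 1291 bp past the hairpin with AATAAA 19 bp before the edge, and its peak at 2113 bp (12 reads) had AATAAA as well but 7 A past the edge. H2BC21, whose record runs 1729 bp past the hairpin, had 28 reads 22 bp past that annotated end, with AATAAA 46 bp before the edge, and no peak at the hairpin. The remote sites of H2BC8 and H2BC17 are shown with the hexamer next to the edge in capitals, and the sequence ends at the edge.
H2BC8, chr6:26214076-26214105, minus strand: taaatcaaaataaaAATAAAgtgtatattt
H2BC17, chr6:27895147-27895176, plus strand: atcccctcttcAATAAAttacttctattgt

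The 15 multi-exon members have records that end from 5 bp (H3C12) and 430 bp (H2BC6) to 37155 bp (H2BC4) past the hairpin, and 14 of them had a peak (93.3%), with a median of 15.5 reads for the strongest. Among the other multi-exon protein-coding genes 81.7% of 19039 had a peak, and 75.4% of the 10727 no longer than the longest multi-exon member, with a median of 25 reads in both. A peak ended within 20 bp of the far annotated end in 4, each with AATAAA within 100 bp upstream. These were H2BC5 (17 reads, 12745 bp past the hairpin), H3C6 (11 reads, 1862 bp), H2BC11 (11 reads, 6424 bp) and H2AC6 (9 reads, 14418 bp). H2BC15 had 13 reads 129 bp before its far end, also with AATAAA. H2BC5 is the member with a peak at the hairpin, of 15 reads, and at the far end, of 17 reads, and the site of the far end is chr6:26171318-26171347 on the plus strand: tataattAATAAAatctgcggagaattgta. H4C14 and H4C8 had peaks at the hairpin and none at the far end, and H4C14 also had 26 reads 690 bp past the hairpin with AATAAA 27 bp before the edge. Of the others, H2BC18 had its highest pileup, 18 reads, 263 bp before the hairpin end, H2BC4 had 13 reads 190 bp past the hairpin with ATTAAA, H2AC25 had 14 reads 387 bp past it with ATTAAA, H2BC26 had 11 and 12 reads 2035 and 2690 bp past it with ATTAAA, H3C12 had 15 reads inside its record with 10 A past the edge, and H2BC6 had 10 reads upstream of the hairpin. In these peaks of H2BC18 and H2BC4, and at the far end of H2AC6, the summit lay more than 100 bp before the edge. The peaks in the window of H4C15 were nearer to H2AC19, and H2AC1 had none. Over 600 bp past the hairpin, 35 of 48 peaks belonged to multi-exon members, and 16 of the 48 were A-rich on the strand of the gene and 7 on the opposite strand.

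Peaks were listed in all 5 clusters, set as members less than 500 kb apart on a chromosome. The chromosome 1 cluster at 149782689 to 149887965 held 11 genes and 17 peaks with a median pileup of 21, the highest of the 5, and 7 of its peaks lay in no other coding gene's window. The second chromosome 1 cluster, 228434777 to 228463104, held H2AC25 and H2BC26 with 8 peaks and a median of 10. On chromosome 6, the largest cluster at 25723397 to 26285638 held 34 genes and 49 peaks with a median of 13, the one at 27125897 to 27147562 held 5 genes and 8 peaks with a median of 13.5, and the one at 27807479 to 27893891 held 16 genes and 20 peaks with a median of 12.5. Hairpin peaks numbered 2, 0, 11, 2 and 6 in this order. The local background that MACS2 set at histone peaks had a median of 1.31 reads, compared with 0.520 over all listed peaks, and its part in which sites were listed was not tested.

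No peak was listed at 10 members, H3C14, H3C15, H2AC1, H2BC1, H3C2, H2BC7, H4C6, H4C7, H2BC10 and H2AC15. H2AC1 and H2BC1 are a divergent gene pair known for expression in the testis. In another 5, H4C15, H2AC21, H1-6, H2AC7 and H3C10, every peak in the window was nearer to a neighbouring member. A peak missing from the list does not show that a gene was silent, since mRNA that ends at the hairpin without a tail is not captured.

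The factors that make histone mRNA were themselves measured in these cells. Of 20 genes for histone mRNA processing and cluster transcription, 19 had a peak in the TES window, with strongest pileups of 13 to 50 reads and a median of 32. Of the 19965 protein-coding genes other than the members, 68.7% had a peak in such a window around any transcript end, with a median of 23 reads. That is a wider measure than the single gene end used for the single-exon histone genes above. The 19 genes included SLBP (50 reads), the U7 snRNP proteins LSM10 (27) and LSM11 (13), the endonuclease CPSF3 (41), CASP8AP2, the FLASH protein of the cleavage complex (43), and the cluster activator NPAT (22). E2F1 had none. Of 12 histone genes outside the clusters or independent of replication, 11 had a TES peak with a median of 43 reads (11 to 75), among them H3-3B (75), H2AZ1 (68) and H2AX (20), and H4C16 had none. The neuroblastoma markers had TES peaks in 11 of 11 genes (16 to 114 reads), and of 6 markers of other cells, EPCAM (13), COL1A1 (14) and ALB (3) had TES peaks while PTPRC, CD3E and PECAM1 had none.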

How the data were processed

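The authors trimmed single-end QuantSeq REV reads, mapped them to GRCh38 with STAR, brought the libraries, which came from more than 1 processing batch, down to the depth of the smallest, merged all 10 and called peaks with MACS2 2.1.1, extending reads to 100 bp. Reads with up to 20 positions were kept. Per the file, the deposited fold is the ratio of summit pileup plus 1 to local background plus 1, the deposited p-value and q-value are given as −log10, and the deposited score is a rounded −log10 q-value, which was not used. The deposited interval and summit positions are 0-based.

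The pileup behind each deposited pair of fold and −log10 p was solved for, with a largest miss of 0.000168 in −log10 p. Pileups count at most 1 read per position and strand under the MACS2 default, and no depth per library is known. Peaks, hairpins and hexamers were read with Python 3.11.15, pandas 2.3.3 and pysam 0.24.0 on GRCh38 with GENCODE 44, and intervals were aligned with BLAST 2.17.0. Tested on simulated data, 99.9% of 5000 pileups and 100% of 8000 sequence and distance features were recovered. The genes named were, by rule, the 4 of each type with the highest pileups among peaks in no other coding gene's body or window, every multi-exon member, and members with a remote core-hexamer peak as described. Members, lists and classes were chosen with earlier results of these data known. No test over samples could be made, and alternatives are given in the closing section.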

Additional observations from a re-analysis of the deposited data

How the results depend on the processing

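No paired analysis was possible because peaks were called on merged libraries, and likewise no replicate could be left out. A share was read as moved when it left the 95% interval of its reported value. Of 50 alternatives for the results on histone genes, 35 stayed within that interval and 15 moved. At a −log10 q-value of 20 or more, the shares of single-exon histone genes were 15.1% (any peak), 13.2% (TES window), 3.77% (beyond 600 bp) and 1.89% (edge within 10 bp, a result added after the data were seen), the median of the strongest pileup was 42.0 reads over 8 genes, and the shares of peaks were 85.7% with a hexamer and 0% A-rich over 7 peaks. Of these 7 peaks, only 1 ended at the hairpin, that of H4C11, which had AATAAA. Without peaks in another coding gene's body or window, the first 3 shares of single-exon histone genes were 52.8%, 35.8% and 11.3%. With a window of 1 kb, 69.8% had any peak and 7.55% a peak past 600 bp, and without peaks that align elsewhere 67.9% had any peak. AATAAA and ATTAAA alone gave 33.3%, and a 25-base A stretch in place of 7 A in 10 gave 5.88%. These settings leave out peaks or narrow a definition. At the cutoff of 20 the median pileup and the hexamer share rose, from reported values of 18 reads and 54.9%. A class of 10 bp around the hairpin end held 19 peaks and one of 50 bp held 26, also set after the data were seen. A median of 13.0 reads per histone peak limits how finely sites can be ranked.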
